A study of Mus musculus with 28 samples.

Results

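The genes described here are 10 transcription factors known to specify the projection neurons of the striatum, listed by name from their known roles, out of 21938 protein-coding genes on chromosomes 1 to 19, X and Y. They comprise 5 factors of the direct pathway (*Isl1*, *Ebf1*, *Zfp521*, *Zfp503* and *Foxp2*), 3 factors of the indirect pathway (*Sp8*, *Sp9* and *Six3*) and 2 factors that both pathways use (*Foxp1* and *Bcl11b*). All 10 were found in the annotation, and each was read at its promoter, over its body and across 50 kb on either side.

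H3K4me3 and H3K27me3 were profiled by CnR (cleavage under targets and release using nuclease) on nuclei purified by INTACT, in which a Cre line puts an sfGFP tag on the nuclear envelope of 1 cell type. The A2a nuclei came from Sun1-sfGFP;A2a-cre mice and the D1 nuclei from Sun1-sfGFP;Drd1-cre mice, untreated animals of both sexes at about 8 weeks of age on a C57BL/6J background, with the striatum of a single mouse per sample. That age is from the paper's Methods, and its Results give a wider range. The 4 lists analysed pool 8 of the 28 samples, 2 replicates for each cell type and mark. They come from 1 antibody per mark, Abcam for H3K4me3 and Active Motif for H3K27me3. Samples of the same nuclei with other antibodies against these marks are in the series and were not analysed. Values below carry no spread between replicates, and A2a and D1 could not be tested against each other across mice. A2a marks medium spiny neurons of the indirect pathway and D1 those of the direct pathway, as far as the adenosine and dopamine receptor genes behind each Cre line are restricted to them. For the D1 H3K27me3 samples the source name reads A2a while the title and the cell type read D1. The reading as D1 was used throughout, and all comparisons of H3K27me3 depend on it.

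Medium spiny neurons arise from the lateral ganglionic eminence, and a shared programme is then divided between the pathways by transcription factors. *Isl1* and *Ebf1* act in newborn direct pathway neurons, whereas *Sp8*, *Sp9* and *Six3* act in indirect pathway neurons. H3K4me3 marks the start sites of active and poised genes. H3K27me3, laid down by Polycomb repressive complex 2, often spreads over whole developmental genes in cells that keep them silent, and a promoter with both marks is called bivalent or poised. In nuclei collected in bulk, both marks at 1 promoter can lie on the same chromatin or in different cells, and these lists do not separate the possibilities.

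The lists differed in size, and this touches every count below. For the higher global signal it saw in A2a, the paper proposes technical sources such as cell number, mouse age or batch over biological variation. That was not tested here. The A2a list held 60191 islands of H3K27me3 covering 301 Mb and the D1 list 45760 islands covering 184.1 Mb, and the H3K4me3 lists held 22551 and 20080 peaks. Across protein-coding genes, the share of a gene and its 50 kb flanks lying within islands was higher in A2a for 60.4% and higher in D1 for 7.05%, with a median difference of 1.73 percentage points, so a higher value in A2a was the common case. Marker genes of each cell type were read as a check on the labels. All 4 A2a markers found (*Adora2a*, *Drd2*, *Penk* and *Gpr6*) had more of their surroundings within D1 islands, by 55.6 to 88.0 points, and all 5 D1 markers (*Drd1*, *Pdyn*, *Tac1*, *Chrm4* and *Eya1*) had more within A2a islands, by 12.6 to 77.7 points. With the A2a islands limited to the covered length of D1, all 4 A2a markers stayed higher in D1. Of the 5 D1 markers, 4 then stayed higher in A2a and 1 was higher in D1, the lowest difference being -0.497 points. Another A2a marker, *Gpr52*, was not found by that symbol. Promoter islands lay at 6 of 6 interneuron markers in both lists, and promoter H3K4me3 lay at 1 of them (*Kit*). Of 5 astrocyte, 5 oligodendrocyte and 5 microglia markers, promoter H3K4me3 lay at 2, 2 and 1 in A2a and at 2, 2 and 0 in D1. The part of other cells in the values below was not tested.

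Start sequences of the genes counted with both marks at the promoter, or with an island there in A2a alone, are shown first. RefSeq (GRCm38.p6) gave windows of 300 bases, from 250 before the start to 50 after it, for 8 of the 10 factors. *Zfp521* and *Foxp2* are named here without a sequence. Where RefSeq lists several starts, the one with the most bases within H3K4me3 peaks is printed, 5′ to 3′ in the direction of the gene with each CpG in capitals. CpG-rich starts are where both marks are usually found. *Isl1* (chr13:116309639-116309938, minus strand) and *Ebf1* (chr11:44619978-44620277, plus strand, the later of 2 starts) are from the direct pathway set.
Isl1: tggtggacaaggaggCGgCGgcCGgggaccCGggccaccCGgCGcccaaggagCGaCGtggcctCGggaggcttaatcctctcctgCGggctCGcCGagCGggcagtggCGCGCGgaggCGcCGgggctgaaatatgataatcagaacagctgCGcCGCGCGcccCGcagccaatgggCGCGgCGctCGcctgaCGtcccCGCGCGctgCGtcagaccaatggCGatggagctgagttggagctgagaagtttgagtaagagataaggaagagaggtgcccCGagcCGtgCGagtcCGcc
Ebf1: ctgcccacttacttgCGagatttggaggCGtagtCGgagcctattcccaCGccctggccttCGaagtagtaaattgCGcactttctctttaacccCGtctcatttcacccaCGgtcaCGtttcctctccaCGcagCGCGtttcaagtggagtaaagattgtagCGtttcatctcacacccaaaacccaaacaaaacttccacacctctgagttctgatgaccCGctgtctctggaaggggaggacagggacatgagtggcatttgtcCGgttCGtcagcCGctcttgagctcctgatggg
*Zfp503* (chr14:21989552-21989851, minus strand) completes the set for which RefSeq gave a window.
Zfp503: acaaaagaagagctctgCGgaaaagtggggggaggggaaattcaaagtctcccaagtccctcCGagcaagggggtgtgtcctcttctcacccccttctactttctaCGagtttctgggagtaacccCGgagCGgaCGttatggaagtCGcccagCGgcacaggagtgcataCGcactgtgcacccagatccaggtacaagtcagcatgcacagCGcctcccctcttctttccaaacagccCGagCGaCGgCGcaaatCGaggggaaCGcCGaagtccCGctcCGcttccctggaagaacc
The indirect pathway set is given by *Sp8* (chr12:118846983-118847282, plus strand, 1 of 3 starts), *Sp9* (chr2:73271676-73271975, plus strand) and *Six3* (chr17:85620584-85620883, plus strand, a start 7226 bp into the gene as GENCODE places it).
Sp8: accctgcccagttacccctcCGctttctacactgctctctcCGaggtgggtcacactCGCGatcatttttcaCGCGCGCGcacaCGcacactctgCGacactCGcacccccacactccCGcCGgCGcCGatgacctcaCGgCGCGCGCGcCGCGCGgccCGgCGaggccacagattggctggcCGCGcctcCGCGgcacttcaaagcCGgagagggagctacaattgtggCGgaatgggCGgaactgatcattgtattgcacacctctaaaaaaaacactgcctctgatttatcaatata
Sp9: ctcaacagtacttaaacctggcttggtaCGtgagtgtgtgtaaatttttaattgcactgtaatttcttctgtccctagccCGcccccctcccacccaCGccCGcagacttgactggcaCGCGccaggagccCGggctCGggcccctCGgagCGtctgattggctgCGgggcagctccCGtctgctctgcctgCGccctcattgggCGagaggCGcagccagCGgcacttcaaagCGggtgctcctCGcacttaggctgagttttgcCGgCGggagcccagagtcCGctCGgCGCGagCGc
Six3: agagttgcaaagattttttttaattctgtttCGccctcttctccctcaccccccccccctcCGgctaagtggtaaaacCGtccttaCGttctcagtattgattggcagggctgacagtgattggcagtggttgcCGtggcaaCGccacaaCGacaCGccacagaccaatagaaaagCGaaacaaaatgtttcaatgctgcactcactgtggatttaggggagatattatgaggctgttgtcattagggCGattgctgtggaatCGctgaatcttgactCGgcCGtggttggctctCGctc

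These windows were of unequal CpG content. The *Isl1* start held 37 CpGs, as many as the 95th percentile of the 32851 promoter windows listed, where the median was 7. The *Sp8* window held 32, *Sp9* 25, *Zfp503* 19, *Ebf1* 17 and *Six3* 14, all above that median. The earlier *Ebf1* start held 9 CpGs, and the *Sp8* start at the GENCODE 5′ end held 2. In A2a, islands of H3K27me3 covered all 300 bases of each of the 6 windows. In D1 they covered all 300 bases at *Isl1*, *Ebf1*, *Sp8* and *Sp9* and none at *Zfp503* and *Six3*. H3K4me3 peaks covered all 300 bases at *Isl1* in both lists, at *Ebf1* in D1 alone and at *Sp8* in A2a alone. The *Ebf1* and *Sp8* windows were chosen by this cover. At the earlier *Ebf1* start and at the *Sp8* start at the GENCODE 5′ end, peaks covered 0 bases in either list. At *Sp9* they covered the last 48 bases in both lists, at *Six3* 121 bases in D1, and at *Zfp503* none in either list.

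The letters of 4 short motifs were searched on both strands. GGGCGG, the GC box that Sp factors bind, was present in 35.7% of all windows and in *Sp8* and *Sp9* among those printed, once each. TAATTA, the core of many homeodomain sites, was present in 5.29% of all windows, TGTTTAC, a forkhead site, in 3.65%, and CCCNNGGG, the core of the Ebf site, in 13.7%. None of these 3 was found in the 6 windows printed. GGGCGG and CCCNNGGG can share bases, and a match is no more than a description of the sequence.

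At the promoter, taken as 2 kb upstream to 1 kb downstream of the annotated 5′ end, the 10 factors carried H3K27me3 more often than protein-coding genes at large. An island lay at 8 of 10 promoters in A2a, where the share of all genes was 21.7%, and at 6 of 10 in D1, where it was 15.3%. H3K4me3 peaks lay at 9 of 10 in A2a against 58.2% of all genes and at 8 of 10 in D1 against 55.7%. Both marks were present at 7 of 10 promoters in A2a against 9.54%, and at 5 of 10 in D1 against 5.57%. Islands in A2a alone were found at 2 of 10, *Zfp503* and *Foxp2*, against 7.38% of all genes, and an island in D1 alone at 0 of 10 against 1.0%. The factors without a promoter island in either list were *Foxp1* and *Bcl11b*. A promoter peak of H3K4me3 was missing at *Ebf1* in A2a and at *Zfp503* and *Sp8* in D1.

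Over the wider neighbourhood, the 3 sets differed in their cover by H3K27me3. All 5 direct pathway factors had a higher share of the gene and its flanks within islands in A2a, against 60.4% of all protein-coding genes. Their median difference was 31.5 points and their range 9.80 to 79.3. That direction was not particular to them, since all 13 paralogs and all 12 factors of other forebrain lineages described below were also higher in A2a. Of the 3 indirect pathway factors, *Six3* was higher in A2a by 12.8 points, *Sp8* differed by 1.51 points and *Sp9* was higher in D1 by 6.38 points, giving a median difference of 1.51. With the A2a islands limited to the covered length of D1, all 5 direct pathway factors stayed higher in A2a. Their median was 14.4 points and their range 4.06 to 78.0. The indirect pathway factors had a median of -6.38 and a range from -10.9 (*Sp8*) to 9.68 (*Six3*). *Six3* thus stood above *Foxp2* (4.06), and the sets overlapped. Over all protein-coding genes the median was then 0, with 39.1% higher in A2a and 21.2% higher in D1. The 2 shared factors were at or near 0 in both lists.

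**Figure D1:**
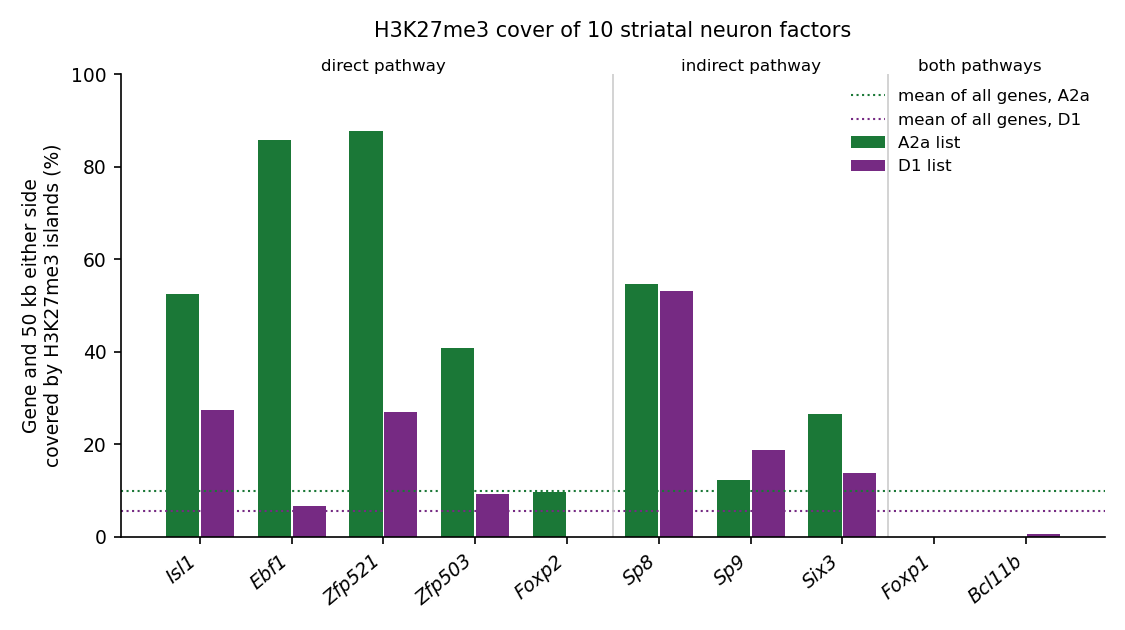
Share of each gene and its 50 kb flanks within H3K27me3 islands (y axis, percent) in the A2a and D1 lists, with 1 bar per pooled list and no error bar because replicates were pooled. Dotted lines give the mean over all 21938 protein-coding genes, 9.93% in A2a and 5.61% in D1. The bars of *Ebf1* (85.9% and 6.62%) and *Zfp521* (87.8% and 27.1%) stand farthest apart, those of *Sp8* (54.6% and 53.1%) are nearly level, and *Foxp1* is at 0 in both.

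*Isl1*, a LIM homeodomain factor that starts the direct pathway programme, is a gene of 11.4 kb on chromosome 13 (116298281 to 116309689, minus strand). In A2a a single island of 31.2 kb with 6620 reads ran from -11.3 kb to 19.9 kb of the start and covered the promoter and the whole gene. In D1 the promoter lay in an island of 5.80 kb with 229 reads, and 59.7% of the gene was covered, in 3 separate islands. Over the gene and flanks the shares were 52.6% in A2a and 27.5% in D1, and 409 protein-coding genes had a larger difference. The A2a island held 212.2 reads per kb, 3.39 times the median island of its list, and the D1 promoter island held 39.5 reads per kb, 1.06 times its median. *Isl1* was therefore under dense H3K27me3 in A2a and under islands of usual density in D1.

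H3K4me3 at *Isl1* went the other way. The A2a promoter peak was 1.02 kb long with a −log10 q of 7.91, which placed it at the 14.0th percentile of A2a peaks. The strongest D1 promoter peak was 1.451 kb long with a −log10 q of 37.0, at the 44.1st percentile, and D1 held 5 peaks at and around the gene where A2a held 1. The difference in percentile, A2a minus D1, was -30.1 points, while the median over 12194 genes with promoter peaks in both lists was 3.84 and 90% of them fell between -15.1 and 20.3. Fold enrichment over local background was higher in A2a (3.68) than in D1 (2.68), so the order depended on the column read. The strongest promoter peak lay wholly within an island in both lists, and 69.0% of the other D1 promoter peak did.

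*Ebf1*, a helix-loop-helix factor that direct pathway neurons need as they mature, showed the widest gap in H3K27me3. The gene spans 391 kb on chromosome 11 (44617317 to 45008091, plus strand). In A2a, 24 islands covered 85.9% of the gene and flanks, 13 of them over 10 kb and the longest 70.8 kb with 10008 reads, running from -16.9 to 53.9 kb. In D1, 10 islands covered 6.62%, the longest 6.40 kb, and the promoter held an island of 1.40 kb with 61 reads. The difference of 79.3 points was exceeded by 0 of the other protein-coding genes. Over the gene body alone it was 88.8 points, and 110 genes, counted over their own bodies, had a larger one.

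H3K4me3 at the *Ebf1* promoter was found in D1 alone. D1 had promoter peaks at -0.229 to 0.386 kb and at 0.846 to 2.11 kb, the stronger with a fold enrichment of 3.85 and a −log10 q of 42.2 (46.7th percentile), followed by a peak at 2.36 to 3.21 kb over the later RefSeq start. In A2a the single peak in the neighbourhood lay at -6.20 to -5.82 kb, was 0.379 kb long and had a −log10 q of 6.41. D1 held a peak at the same place, with a −log10 q of 6.94. Taken whole, 18.3% of the first D1 promoter peak and 49.4% of the other lay in an island, and a D1 island of 1.80 kb, from 1.48 to 3.28 kb, lay over the next peak. D1 thus had promoter H3K4me3 with short islands at and beside it, and A2a had an unbroken island and no promoter peak.

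*Zfp521*, a zinc finger factor known as an antagonist of Ebf1 in blood cells, spans 286 kb on chromosome 18 (13687013 to 13972787, minus strand) and resembled *Ebf1* in its cover. In A2a, 27 islands covered 87.8% of the gene and flanks, with the promoter in an island of 33.2 kb and 3765 reads. In D1, 23 islands covered 27.1%, the longest 14.2 kb. The difference was 60.7 points, with 6 genes higher, and it was widest in the body (88.7% against 15.7%). In the flanks it was smaller, 82.0% against 56.4% upstream and 88.4% against 63.2% downstream.

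At the *Zfp521* promoter, H3K4me3 was present in both lists. The A2a promoter peak was short and strong, 0.811 kb with a fold enrichment of 8.62 and a −log10 q of 125.8 (71.6th percentile), and lay wholly in the island. Weaker A2a peaks followed at 1.18 to 1.47 kb and at 1.74 to 2.64 kb, with −log10 q values of 13.9 and 14.8. The D1 peak was a single one of 3.12 kb, from 0.127 to 3.25 kb, with a fold enrichment of 4.0 and a −log10 q of 48.4 (49.8th percentile). It spanned most of the stretch that A2a held as separate peaks. In D1 an island ended at -0.814 kb and another, beginning at 1.39 kb, covered the far 1.86 kb of the peak. *Zfp521* was counted with both marks in D1, although 0 bp of the peak lay in an island within the promoter window itself. Further into the gene, both lists held a weak peak about 185 kb from the start.

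*Zfp503* (Nolz1), a zinc finger factor of striatal progenitors and direct pathway neurons, is a gene of 5.64 kb on chromosome 14 (21983959 to 21989601, minus strand). In A2a its promoter lay in an island of 9.40 kb with 605 reads, at 64.4 reads per kb, about the median density of its list. In D1 no island touched the promoter or the gene, and the nearest, of 2.0 kb with 58 reads, lay 0.8 kb outside the promoter window. Shares over gene and flanks were 40.7% and 9.28%, a difference that 162 genes exceeded. The H3K4me3 peak counted in A2a alone, 0.635 kb with a −log10 q of 20.6, lay between 0.172 and 0.806 kb, and both lists held a larger peak just past the window, beginning at 1.21 kb in A2a and at 1.12 kb in D1. The D1 promoter therefore lacked a peak by a margin of about 0.1 kb, and the count of promoters with H3K4me3 depends on where the window ends.

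*Foxp2*, a forkhead factor enriched in direct pathway neurons, spans 541 kb on chromosome 6 (14901349 to 15441977, plus strand) and has 16 annotated starts. In A2a 14 islands lay at the gene and its flanks and covered 9.80% of them, and in D1 there were 0, the nearest lying 56.7 kb from the promoter. The A2a promoter island was 8.40 kb long with 823 reads, at 98.0 reads per kb, or 1.57 times the median of its list. The difference over gene and flanks was modest, with 3589 genes higher, because most of this long gene was free of islands in both lists. Promoter H3K4me3 was alike in outline, a peak of 2.61 kb in A2a (−log10 q 94.7, 60.1st percentile) and of 2.60 kb in D1 (−log10 q 51.7, 51.5th percentile).

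Inside *Foxp2*, near 285, 296 and 504 kb, both lists held H3K4me3 peaks, the first 2 groups at annotated starts, with −log10 q values from 16.6 to 27.6 for the strongest peak of each group in A2a and from 20.3 to 39.1 in D1. A2a islands lay over the groups near 285 kb (9.80 kb with 908 reads) and 504 kb (3.60 kb with 208 reads), and not over that near 296 kb. Near 285 and 296 kb the strongest peak had the higher −log10 q in D1, unlike at the first start. Of the 16 starts, 12 had a peak in the promoter window in A2a and 12 in D1, 12 had an island in A2a and 0 in D1, and 9 carried both marks in A2a.

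**Figure D2:**
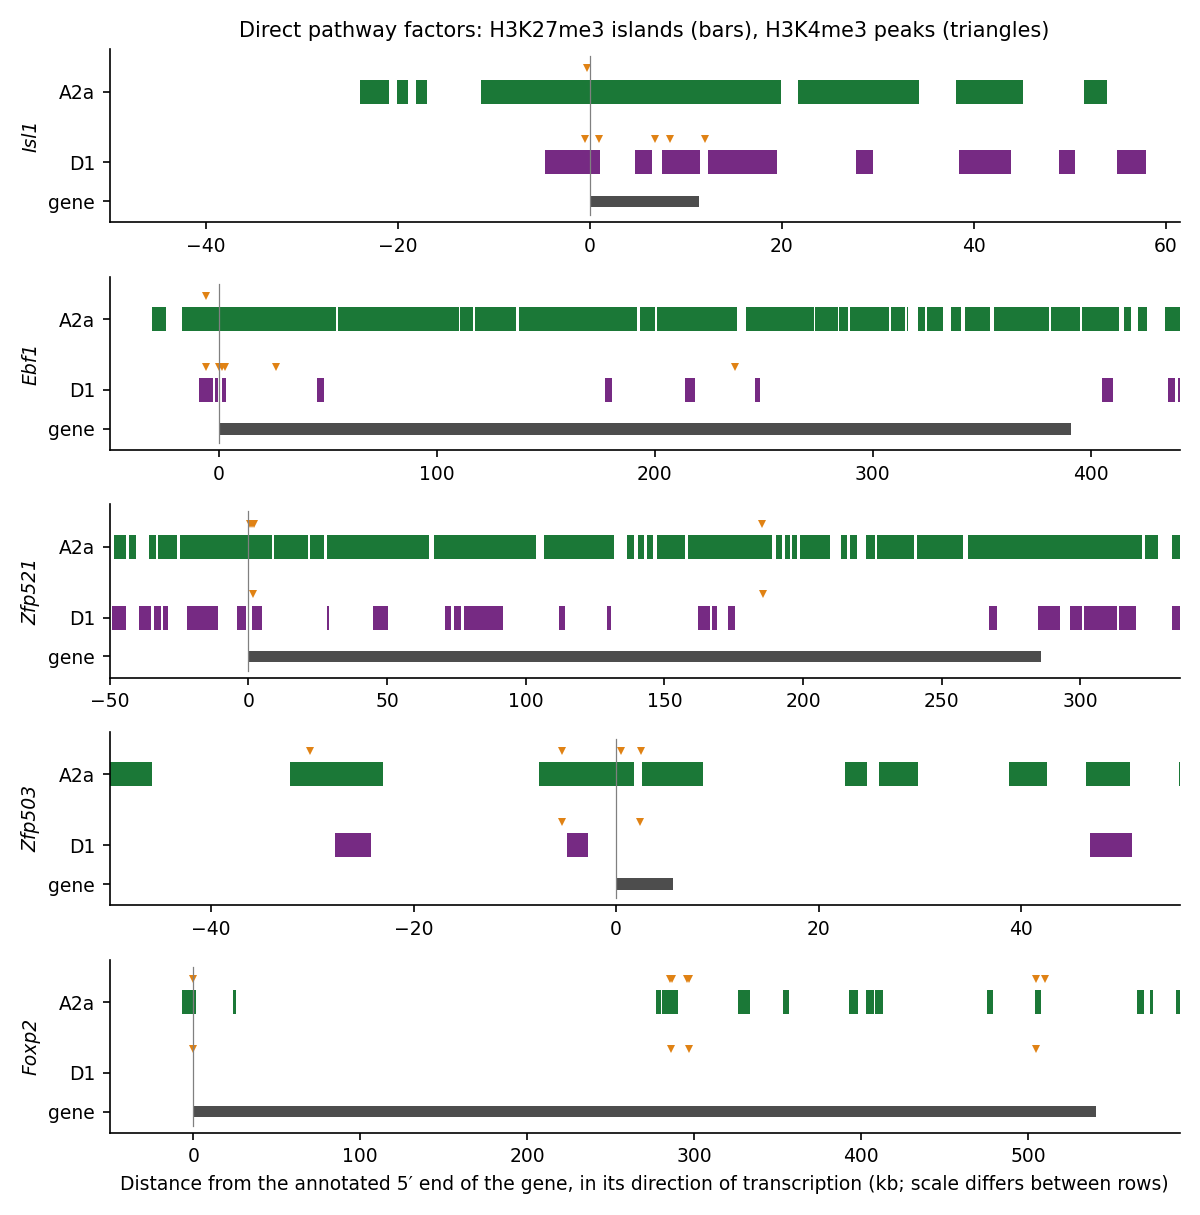
H3K27me3 islands (bars, green for A2a and purple for D1) and H3K4me3 peaks (orange triangles at the peak centre, size not scaled) at the 5 direct pathway factors, by distance from the annotated 5′ end in kb, with the gene as a grey bar. Rows differ in scale, and each is cut at 50 kb beyond the gene. Islands nearly fill *Ebf1* and *Zfp521* in A2a, are broken in D1, and are missing from the D1 row of *Foxp2*.

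The indirect pathway factors did not mirror this pattern. *Sp8*, a zinc finger factor of the Sp family, is a gene of 6.25 kb on chromosome 12 (118846329 to 118852576, plus strand) and lay in a long island in both lists. The island was 31.2 kb with 5545 reads in A2a and 36.8 kb with 2953 reads in D1, each at the upper end of its list (99.7th and 99.8th percentile by reads). The gene was covered in full in both, and the gene and flanks were covered to 54.6% and 53.1%. H3K4me3 at *Sp8* was weak in A2a, a promoter peak of 0.430 kb with a −log10 q of 5.88 (7.72nd percentile) and another 8.31 kb downstream, and D1 held 0 peaks within 50 kb. *Sp8* thus lay under long islands in both lists.

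*Sp9*, its close relative, is a gene of 12.8 kb on chromosome 2 (73271925 to 73284706, plus strand) and had more H3K27me3 in D1. A single D1 island of 21.2 kb with 1577 reads covered the promoter and 82.0% of the gene. In A2a 3 islands of 1.40 to 9.40 kb, with 590 reads in the one at the promoter, covered 42.8% of the gene. The difference over the gene body was -39.1 points, with 56 protein-coding genes lower, and over gene and flanks -6.38 points, with 148 lower. The D1 island was also denser for its list, at 2.0 times the median reads per kb, while the A2a promoter island was at 1.0 times.

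H3K4me3 at *Sp9* was stronger in A2a. The promoter peaks began at the same base and measured 1.12 kb in A2a and 1.09 kb in D1, but the −log10 q was 93.0 (59.5th percentile) in A2a and 19.7 (33.6th percentile) in D1. The percentile difference of 25.9 points lay above 98.5% of genes with peaks in both lists. Fold enrichments were closer, 3.09 and 2.56. A2a also held 3 short peaks inside the gene, 1 in a gap between its islands and 2 over the middle island, and D1 held 0 there.

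*Six3*, a homeodomain factor, is a gene of 15.7 kb on chromosome 17 (85613608 to 85629302, plus strand). Islands covered more of it in A2a, unlike *Sp9*, but its promoter read ratio relative to shared regions was 1.11 (0.949 to 1.29). The promoter islands were 9.20 kb with 592 reads in A2a and 2.2 kb with 69 reads in D1, and the gene body was covered to 53.5% and 15.3%. Its strongest promoter peak of H3K4me3 was also higher in A2a, with a −log10 q of 151.5 (81.6th percentile) against 69.7 (61.3rd percentile), at nearly equal fold enrichment (4.45 and 4.26). That peak lay outside the islands in both lists, while the weaker promoter peak lay wholly in an island in A2a and to 28.0% in D1. About 8 kb into the gene both lists held a broad peak, of 2.44 kb in A2a and 2.31 kb in D1, which the A2a island covered and the D1 islands did not. The 3′ flank reaches an island of 33.4 kb in A2a and 24.8 kb in D1 that also lies at the promoter of the related gene *Six2*, so the share over the flanks is partly that of a neighbour.

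*Foxp1*, a forkhead factor, and *Bcl11b* (Ctip2), a zinc finger factor needed for medium spiny neurons to differentiate, are used by both pathways and were almost free of H3K27me3. *Foxp1* spans 597 kb on chromosome 6 (98925338 to 99522721, minus strand) and had 0 islands in either list within 50 kb, the nearest lying 197.7 kb from the promoter in A2a and 188.7 kb in D1. *Bcl11b* spans 93.2 kb on chromosome 12 (107910403 to 108003602, minus strand) and had 0 islands in A2a and a single D1 island of 1.20 kb with 52 reads, 26.6 kb into the gene. That island overlapped an H3K4me3 peak present in both lists.

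H3K4me3 at the shared factors was similar in rank. The strongest promoter peak of *Foxp1* stood at the 54.9th percentile in A2a and the 51.7th in D1, and that of *Bcl11b* at the 52.6th and 45.1st. At *Bcl11b* the A2a peak was a single domain of 4.22 kb from -0.476 to 3.74 kb, and D1 held 3 peaks of 1.07 to 1.31 kb across the same span. *Foxp1* held 10 peaks in each list, including a group of 3 about 495 kb into the gene, at an internal start. Of its 22 annotated starts, 13 had a peak in A2a and 11 in D1.

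**Figure D3:**
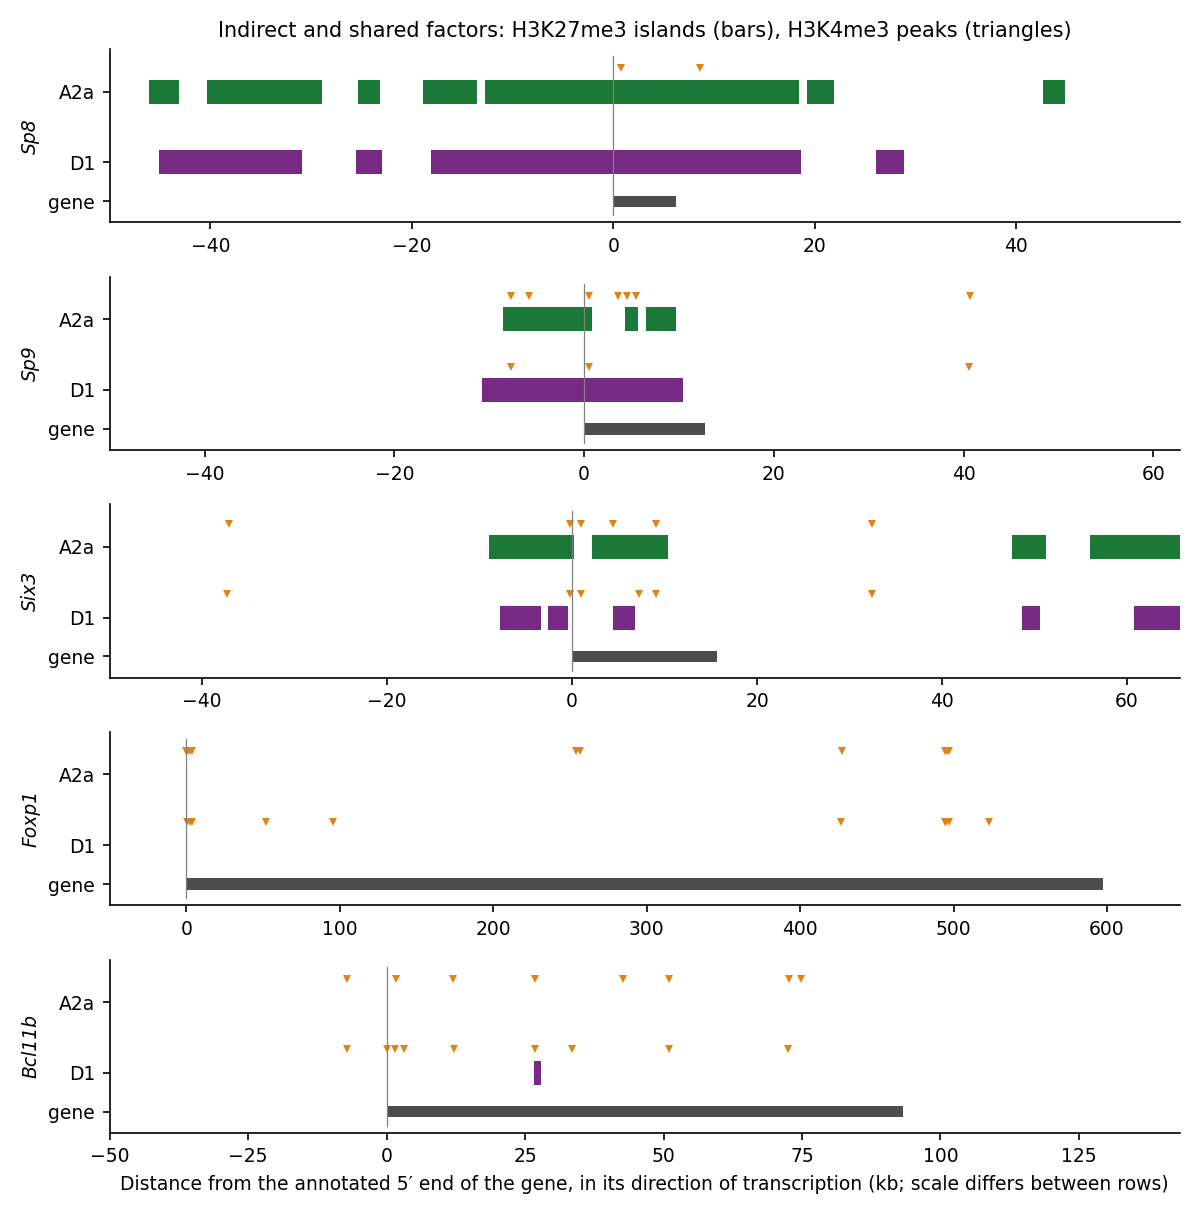
H3K27me3 islands and H3K4me3 peaks at the 3 indirect pathway factors and the 2 shared factors, drawn as for the direct pathway factors, by distance from the annotated 5′ end in kb with a scale of its own in each row. The D1 island at *Sp9* is unbroken where A2a has 3 islands, *Sp8* lies in long islands in both lists, and *Foxp1* has peaks and 0 islands.

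Set side by side, the H3K4me3 ranks did not follow the cover of H3K27me3 at every gene. By −log10 q, *Isl1* had the stronger promoter peak in D1, where it had less H3K27me3, though its fold enrichment was higher in A2a (3.68 against 2.68). *Ebf1* had a promoter peak in D1 alone, where it also had less H3K27me3. *Sp9* had the stronger peak in A2a, where it had less. *Zfp521*, *Foxp2* and *Six3* had a higher percentile in A2a, where they also had more H3K27me3, by 21.8, 8.67 and 20.3 points. *Zfp503* and *Sp8* had a promoter peak in A2a alone.

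**Figure D4:**
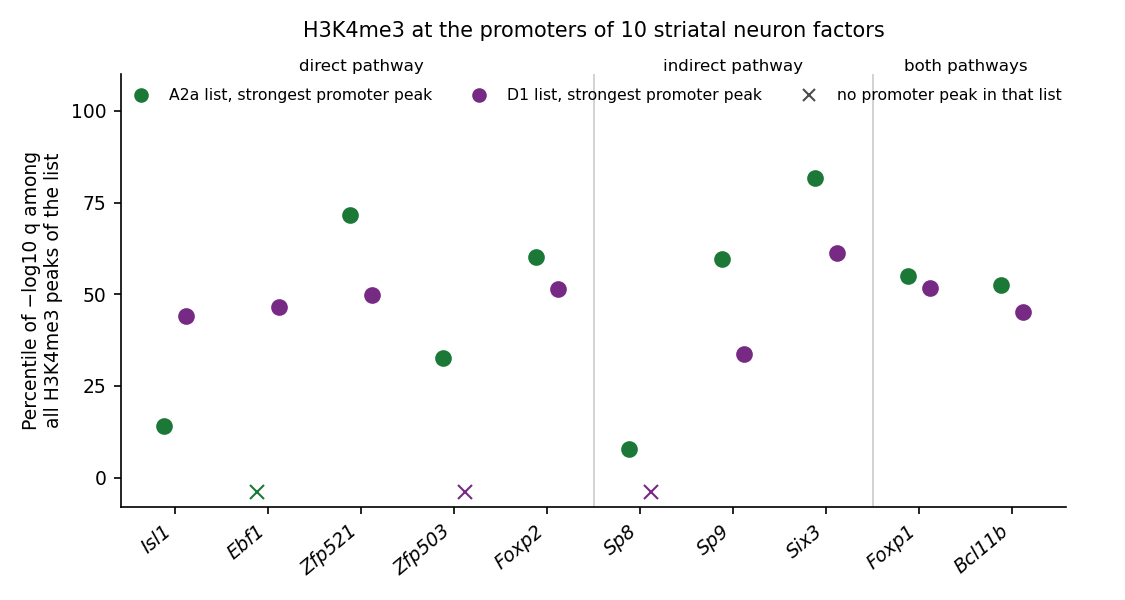
Percentile of the strongest promoter H3K4me3 peak by −log10 q among all peaks of its list (y axis), for the 10 factors in A2a (green) and D1 (purple), with a cross where the list has no promoter peak. *Isl1* stands at 14.0 in A2a and 44.1 in D1, *Sp9* at 59.5 and 33.6, and *Foxp1* and *Bcl11b* differ by less than 8 points.

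Reads within the promoter islands gave a further view that does not depend on ranks. Islands of both lists were merged into regions, and the A2a to D1 read ratio of each was divided by the median ratio of the 28726 regions holding islands of both lists, 2.33, because library depths are not known from the lists. The *Ebf1* region stood at 7.96 times that median (10008 and 541 reads, 95% exact binomial interval 7.30 to 8.69), *Zfp503* at 4.49 (605 and 58 reads, 3.42 to 5.98), *Isl1* at 3.87 (6620 and 736 reads, 3.58 to 4.18) and *Zfp521* at 2.38 (3765 and 681 reads, 2.19 to 2.58). *Sp9* stood at 0.243 (892 and 1577 reads, 0.224 to 0.264), with 0.451% of shared regions lower. *Sp8* stood at 0.851 (0.814 to 0.890) and *Six3* at 1.11 (0.949 to 1.29), an interval that includes 1. *Foxp2* had 823 reads in A2a and no D1 island, so it has no ratio. The intervals cover counting error and not differences between mice.

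Part of these ratios came from the length that was called. The *Ebf1* region held 70.8 kb of A2a island at 141.4 reads per kb and 13.0 kb of D1 island at 41.6, so that per kb of island its ratio was 1.90 times the median ratio of shared regions. On the same scale *Isl1* stood at 3.03, *Zfp521* at 1.67, *Zfp503* at 1.24 and *Sp9* at 0.478. *Sp8* moved to 1.11, above 1, so its direction differed between the scales, and *Six3* stood at 1.03. Of the 7 factors with islands of both lists in their promoter region, *Isl1* had the highest ratio per kb and *Ebf1* the longest A2a island.

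Annotated neighbours of the factors were few. Within 50 kb, *Isl1*, *Ebf1*, *Zfp521*, *Foxp2*, *Six3* and *Bcl11b* had 0 other protein-coding genes. *Lrmda*, whose start is 30.1 kb from that of *Zfp503*, carried both marks at its promoter in A2a and neither in D1. A D1 island reaching -27.8 kb of the *Zfp503* start stopped just short of the *Lrmda* window. *Zfp503* was counted in the same way, with a D1 peak just past its window and a D1 island 0.8 kb outside it. *Cir1* and *Scrn3*, a divergent pair 40.8 and 40.7 kb from the start of *Sp9*, had H3K4me3 in both lists and no promoter island in either. *Gm20696*, which overlaps *Foxp1*, had H3K4me3 in both lists. *Six3os1*, the transcript opposite *Six3*, carried both marks in A2a and H3K27me3 alone in D1. *Gm37695*, which starts at -0.301 kb of *Ebf1* on the other strand, had H3K4me3 in D1 alone and an island in both lists, and its promoter window overlaps that of *Ebf1*.

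Other genes of the striatal programme were read from lists of names, as a setting for the 10. Among 13 paralogs of the factors, promoter islands lay at 10 in A2a and 10 in D1, and all 13 had a higher share of gene and flanks in A2a, with a median difference of 16.1 points. At equal covered length 11 were higher in A2a and 2 in D1, where the shares of all protein-coding genes were 39.1% and 21.2%. *Foxp4*, a forkhead relative of *Foxp1* and *Foxp2*, had a promoter island in A2a alone, and *Zfp703*, the relative of *Zfp503*, in D1 alone, a 1.0 kb island with 51 reads. The largest differences were at *Ebf3* (27.5 points), *Zfp423* (25.6), *Foxp4* (23.5) and *Six6* (22.3). *Ebf2* and *Ebf3* had islands in both lists and no promoter H3K4me3 in either, whereas *Ebf1* had H3K4me3 in D1. *Zfp423*, the closest relative of *Zfp521*, was covered to 76.0% in A2a and still to 50.4% in D1, where *Zfp521* was covered to 27.1%.

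Of 10 factors of ganglionic eminence progenitors, 9 had a promoter island in A2a and 8 in D1, and all 10 had H3K4me3 in A2a against 7 in D1. Their differences in cover ran from -10.6 to 33.5 points. *Dlx5* and *Dlx6*, homeobox genes of GABAergic neurons that share a locus, were higher in A2a by 33.5 and 32.7 points, as was *Gsx2*, a homeobox gene of early striatal progenitors, by 23.5 points. *Dlx1* and *Dlx2*, of the same family, went the other way, with differences of -5.29 and -2.32 points. *Sox2*, a progenitor factor, was also higher in D1, at 63.7% against 53.1%. In all, 6 of the 10 were higher in A2a and 3 in D1. *Hes5*, an effector of Notch signalling, had a promoter island in A2a alone, of 1.6 kb.

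Among 12 other striatal neuron factors, 3 had a promoter island in each list and the median difference was 0. *Ikzf1*, a zinc finger factor, was higher in A2a by 21.0 points, with a promoter island of 16.2 kb against 1.20 kb, as were *Tshz1* by 15.8 and *Rxrg* by 13.3 points without a promoter island. *Ikzf2* was higher in D1, at 34.4% against 27.7%. *Meis2*, *Pbx3*, *Nr4a1* and *Egr1* were at 0 in both lists. By contrast, all 12 factors of other forebrain lineages had promoter islands in both lists and were higher in A2a, by 3.08 to 21.6 points, the highest at *Neurog1* (21.6), *Emx1* (21.0), *Gbx2* (15.7) and *Lhx8* (13.8). Each of *Ebf1*, *Zfp521*, *Zfp503* and *Isl1* lay above that range, while *Foxp2* and *Six3* lay within it and the other 4 factors below it. Among paralogs, *Ebf3* (27.5) and *Zfp423* (25.6) lay above *Isl1* (25.1), and the progenitor factors *Dlx5* (33.5) and *Dlx6* (32.7) above *Zfp503* (31.5). At equal covered length the range of the other lineages ran from -9.91 to 13.8 points. There 9 of the 12 were higher in A2a, against 39.1% of all protein-coding genes. *Isl1* (14.0) and *Zfp503* (14.4) stood barely above that range, and below the highest paralog (20.6) and the highest progenitor factor (24.4). These are descriptions of pooled lists, and no test of the difference between gene lists was made.

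**Figure D5:**
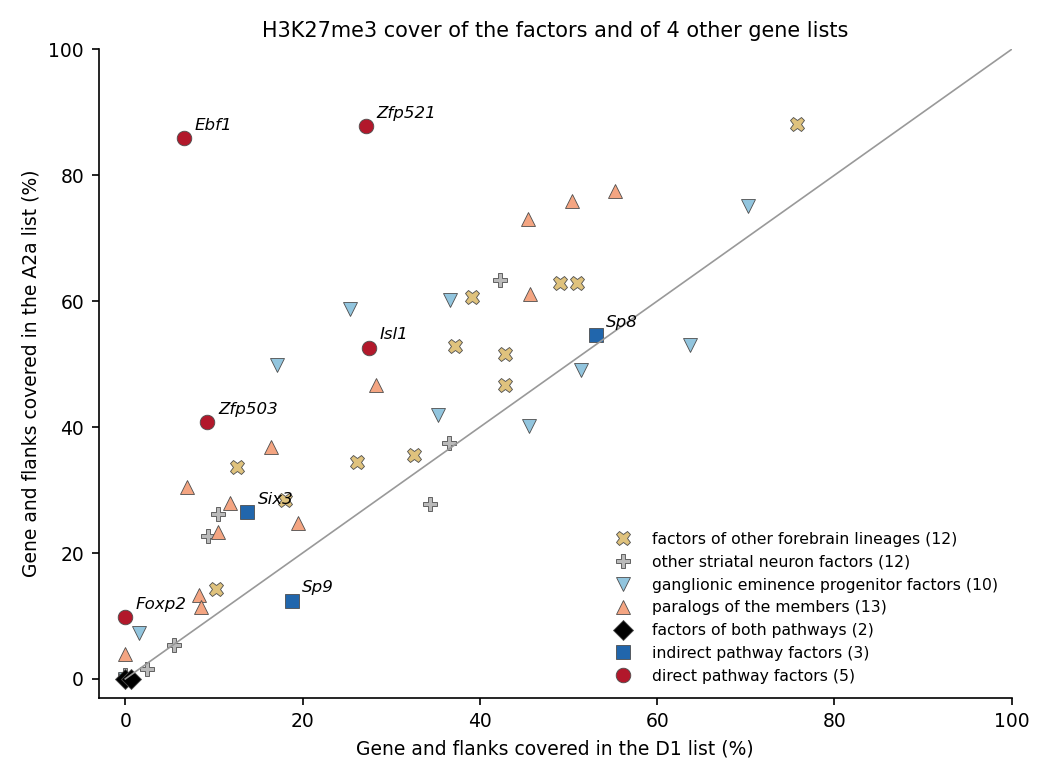
Share of each gene and its 50 kb flanks within H3K27me3 islands in A2a (y axis, percent) against D1 (x axis, percent) for the 10 factors and 4 lists of other transcription factors, with the number of genes in each list in the key and 1 point per gene. The line marks equal shares. *Ebf1* and *Zfp521* lie far above the line, *Sp9* lies below it, and factors of other forebrain lineages lie above it by 3.08 to 21.6 points.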

How the data were processed

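Samples were grouped by the labels' titles, and the 4 deposited lists were read as they stood. The authors mapped reads to mm10 (GRCm38) with Bowtie2 (version 2.1.0, per the labels) and pooled the replicates of each group before calling. Each deposited H3K4me3 peak, called with MACS2 by the authors, carries a fold enrichment, a −log10 q-value and the position of its summit. The lowest −log10 q was 2.04 in A2a and 2.02 in D1. Each deposited H3K27me3 island, called with SICER by the authors, carries a count of reads that is not normalized for depth. The control used for the islands is not given in the sources used here, and the other 20 samples were not analysed here. Total depth per library is not known from the lists, so values were ranked within a list and intervals cover counting error alone.

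Genes and starts were taken from GENCODE vM21. A peak or island was counted at a promoter (2 kb upstream to 1 kb downstream of the annotated 5′ end) when it overlapped by at least 1 bp. The share of the gene and 50 kb either side within islands was computed for every protein-coding gene, and percentiles are over these genes. Positions relative to a start follow the direction of the gene and are in kb. The members and the gene lists were chosen with earlier results of these data known. Named were all 10 members, some of their annotated neighbours with a promoter mark (all coding ones), and from each other list the genes with a promoter island in 1 list alone and up to 4 with the largest differences in either direction. The genes given as examples of other values (such as *Ebf2*, *Dlx1*, *Dlx2*, *Meis2*, *Pbx3*, *Nr4a1*, *Egr1* and *Kit*) were chosen after their values were seen. Alternatives changed the promoter window, the starts, the flanks, the thresholds, the number and covered length of islands, the merging of islands, the minimum overlap and the reference gene set. Interval arithmetic was tested on simulated data. Analyses ran in Python (version 3.11.15) with matplotlib (version 3.10.9), numpy (version 2.4.6) and scipy (version 1.17.1).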

Additional observations from a re-analysis of the deposited data

How the results depend on the processing

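No paired analysis was possible because the lists pool the replicates, and for the same reason no replicate could be left out. Of 142 values recomputed for 36 results, 101 stayed within their limits, 37 moved and 4 reversed. Limits were a factor of 1.5 for counts, which is wide for counts this small, and 95% intervals of the main value otherwise. The intervals of member shares treat adjacent 200 bp windows of a locus as independent. This tally therefore describes the size of the changes and is no measure of spread between mice. Of 67 recomputed counts of factors, 66 stayed within 1.5 times the main count. The exception was the number of factors with a higher share in D1, which was 1 in place of 2 when islands under 2000 bp were left out, since the *Bcl11b* island is 1.20 kb long. The *Sp8* difference in share, 1.51 points, became -1.07 with 25 kb flanks, -2.64 with equal numbers of the strongest islands and -10.9 with A2a islands limited to the covered length of D1. The *Six3* read ratio was 0.918 with all island reads as the reference. Limiting A2a to the D1 length, an alternative chosen after seeing the data, kept 31096 A2a islands and left *Isl1* at 14.0, *Ebf1* at 78.0, *Zfp521* at 51.5, *Zfp503* at 14.4 and *Foxp2* at 4.06 points higher in A2a. *Six3* also stayed higher in A2a, by 9.68 points, and *Sp9* stood at -6.38. Over all annotated genes in place of protein-coding ones, the share with promoter H3K4me3 was 30.1% in A2a and 28.6% in D1. Depth per library is unknown, so a missing peak or island means that none was called at this depth.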
